A study of Mus musculus with 8 samples.

Results

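Genes named Zfp followed by a number encode zinc finger proteins, the largest class of DNA-binding factors in mammals. The genes described here were chosen by their name and selected on their level, a mean of at least 1 TPM (a read share scaled for transcript length and library total) over the 8 samples, which kept 260 of the 379 Zfp genes. The table lists 55801 genes in all, of which 12189 reached that level and were tested. Zfp36, an RNA-decay factor of another family, was not counted. The samples are thioglycollate-elicited peritoneal macrophages of male C57BL/6 mice aged 6 to 8 weeks, collected 72 h after the injection, in 4 groups of 2. NC cells received vehicle, LPS cells were stimulated with 100 ng/ml of lipopolysaccharide for 4 h, C498 cells received 15 μM of the small molecule C498, and C498+LPS cells received C498 for 0.5 h and then LPS. C498 was found by its authors in a screen for inhibitors of JAK/STAT and NFκB signaling, and the design asks what it does to the response to LPS. The labels do not say whether the 2 samples of a group came from separate mice or cultures, so p-values measure only the spread between these samples.

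Most Zfp proteins read DNA with arrays of C2H2 zinc fingers, small folds that each hold a zinc ion and touch a few bases. Many also carry a KRAB box, which recruits the corepressor Trim28 and, through it, the H3K9 methyltransferase Setdb1, heterochromatin proteins and the nucleosome remodelling and deacetylase complex. KRAB genes multiplied in mammals as tandem copies, and many of their products keep endogenous retroviruses and other repeats silent. Zfp proteins without a KRAB box are older and more varied, and include promoter factors, ribosome and splicing factors and signaling proteins.

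The samples held 17528 to 18975 genes above 0, and the 10 macrophage markers summed to 12560 to 20861 TPM in every sample. All 10 genes of an LPS response list rose in LPS against NC. They rose in C498 against NC as well, from a sum of 580 to 650 TPM to 2870 to 3347 TPM. NC replicate 1 stood above NC replicate 2 for 216 of the 260 Zfp genes, and 124 of the 260 had their highest value there. The summed level of the 260 was 1997.5 and 1605.1 TPM in NC, 1595.6 and 1492.2 in LPS, 1860.1 and 1752.0 in C498, and 1648.9 and 1498.2 in C498+LPS. NC replicate 1 was highest and LPS replicate 2 lowest. Replicate 1 had the higher summed and median Zfp level in all 4 groups. It had the higher median of all tested genes in all 4 as well, at 15.3 and 12.1 TPM in the NC samples. Counts against NC are therefore given with and without each NC sample, together with the calls of described genes that were lost. In bulk samples, fewer cells of a type and less RNA per cell cannot be told apart.

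The Zfp genes were expressed at low levels. Their median mean level was 3.89 TPM, against 13.9 TPM for all tested genes. A mean of at least 10 TPM was reached by 48 of them, and 153 lay under 5 TPM. The 10 highest were Zfp207 (61.7 TPM), Zfp703 (46.42), Zfp706 (37.49), Zfp384 (27.70), Zfp622 (25.85), Zfp655 (25.55), Zfp330 (24.45), Zfp106 (23.62), Zfp598 (22.55) and Zfp639 (22.44). None of these 10 had a KRAB box. Zfp207 is a microtubule-associated protein that loads the checkpoint protein Bub3 on kinetochores, Zfp622 is a factor of 60S ribosome maturation, and Zfp598 is a ubiquitin ligase that senses collided ribosomes. Group means of at least 1 TPM were found in all 4 groups for 218 Zfp genes, in 3 groups for 24, in 2 groups for 16 and in 1 group for 2. At the limit itself, Zfp41 (1.034 TPM), Zfp689 (1.015) and Zfp398 (1.002) were kept and Zfp128 (0.9912), Zfp870 (0.9613) and Zfp850 (0.9075) were not. Of the 119 Zfp genes below the limit, 19 were listed at 0 in every sample.

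By the Pfam domains listed in the table, 150 Zfp genes encode a KRAB box, 102 encode other domains without one, and 8 have no Pfam entry. C2H2 fingers are listed for 238 of the 260, and a SCAN domain, a dimerization domain of mammalian zinc finger proteins, for 11, of which 8 have a KRAB box too. KRAB genes had a median mean level of 2.84 TPM and the genes without a KRAB box one of 7.64 TPM. The KRAB genes summed to 806.2 and 598.5 TPM in NC, 578.2 and 529.5 in LPS, 631.8 and 618.1 in C498, and 563.0 and 503.5 in C498+LPS. Without a KRAB box the sums were 1090.6 and 927.4 TPM in NC, 901.4 and 859.7 in LPS, 1122.6 and 1031.9 in C498, and 974.6 and 894.7 in C498+LPS. For KRAB genes the sums in both LPS samples lay below those of both NC samples, and for the other class as well. In both classes the 2 NC samples lay further apart than the lower NC sample and the higher LPS sample. Single genes with both LPS samples below both NC samples made up 42.2% of all tested genes.

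**Figure D1:**
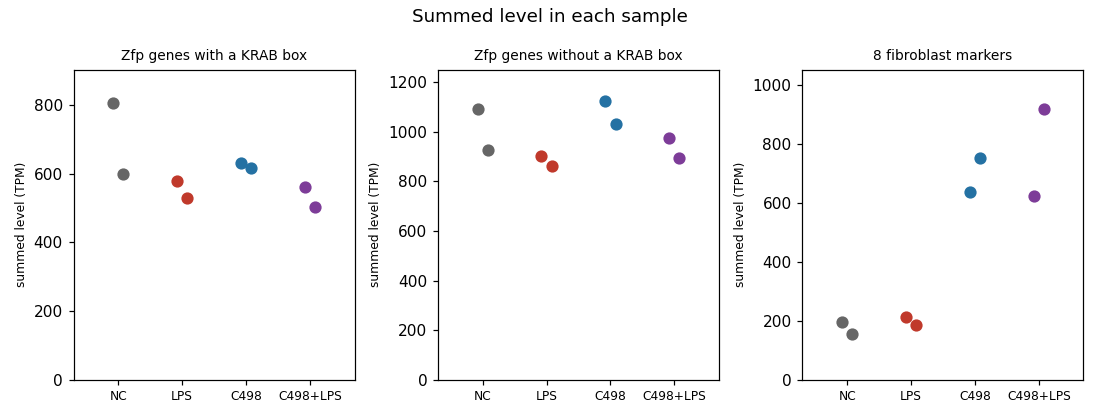
Summed level in TPM (vertical axes, from 0) of the Zfp genes with a KRAB box, of those without, and of 8 fibroblast marker genes. Each point is 1 of the 2 samples of a group; NC replicate 1 is highest for the KRAB genes at 806.2 TPM, and the fibroblast markers lie at 154 to 213 TPM without C498 and at 625 to 919 TPM with it.

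Promoters are shown for 5 Zfp genes that carry results below: Zfp800, the Zfp gene with the largest rise after LPS, Zfp580 and Zfp692, which fell after LPS, and Zfp710 and Zfp622, which fell and rose with C498. RefSeq (GRCm38.p6) gave a window for 215 of the 260 Zfp genes by symbol, and the 250 bases before the transcript start are printed 5′ to 3′ on the gene's strand. The build used for the deposited table is not given in the sources used here. Capitals mark matches, on either strand, to any of 5 motifs: AP-1 (TGANTCA), the cAMP response element (TGACGTCA), the GC box (GGGCGG), the TATA box (TATAAA) and NFκB.
Zfp800, chr6:28398006-28398255, minus strand: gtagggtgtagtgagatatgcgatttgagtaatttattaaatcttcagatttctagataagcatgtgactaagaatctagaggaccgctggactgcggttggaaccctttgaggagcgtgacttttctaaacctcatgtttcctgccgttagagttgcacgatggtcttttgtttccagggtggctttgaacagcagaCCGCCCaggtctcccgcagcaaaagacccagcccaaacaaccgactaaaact
Zfp580, chr7:5051282-5051531, plus strand: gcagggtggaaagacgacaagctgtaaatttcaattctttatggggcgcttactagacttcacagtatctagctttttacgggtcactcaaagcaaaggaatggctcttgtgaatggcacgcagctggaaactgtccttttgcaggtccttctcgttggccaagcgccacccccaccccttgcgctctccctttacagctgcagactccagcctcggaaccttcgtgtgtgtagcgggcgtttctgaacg
Zfp692, chr11:58306819-58307068, plus strand: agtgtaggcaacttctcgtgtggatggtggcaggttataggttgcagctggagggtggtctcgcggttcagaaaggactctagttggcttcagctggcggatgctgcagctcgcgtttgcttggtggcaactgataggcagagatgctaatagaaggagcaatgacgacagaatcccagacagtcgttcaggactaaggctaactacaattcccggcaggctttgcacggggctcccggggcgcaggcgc
Zfp710, chr7:80024564-80024813, plus strand: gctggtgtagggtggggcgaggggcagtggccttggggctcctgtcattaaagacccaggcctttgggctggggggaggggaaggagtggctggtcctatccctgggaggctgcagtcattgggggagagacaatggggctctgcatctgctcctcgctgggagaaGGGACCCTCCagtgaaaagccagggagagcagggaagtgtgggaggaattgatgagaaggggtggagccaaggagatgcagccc
Zfp622, chr15:25984116-25984365, plus strand: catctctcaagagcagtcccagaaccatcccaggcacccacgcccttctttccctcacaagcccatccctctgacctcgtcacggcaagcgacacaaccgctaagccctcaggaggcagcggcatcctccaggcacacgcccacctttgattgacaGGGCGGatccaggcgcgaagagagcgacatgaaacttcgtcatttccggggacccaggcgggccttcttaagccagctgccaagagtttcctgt
Zfp800 had a GC box that begins 52 bases before the start, Zfp622 had a GC box at 94 bases and Zfp710 had an NFκB match at 84 bases. No letters of the 5 motifs were found in the windows of Zfp580 and Zfp692, and no match overlapped another. A match is a run of letters and not a shown binding site.

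Across the 215 windows, the GC box was the motif, of the 5 given here, in which the classes differed most in percentage points. It was found in 33.3% of 132 KRAB promoters, 60.8% of 79 promoters without a KRAB box and 60.1% of 9051 promoters of tested genes, against 32.9% of all 27018 windows. The median GC content was 52% for KRAB genes and 60.8% for the genes without a KRAB box, beside 60% for tested genes. The AP-1 letters stood in 3.72% of Zfp promoters, 4.47% of promoters of tested genes and 6.87% of all windows, and the NFκB motif in 6.05%, 8.54% and 7.01%. By class, the NFκB motif was in 4.55% of KRAB promoters and 8.86% of those without a KRAB box. The cAMP response element was in 2.79%, 2.8% and 1.62%, and the TATA box in 5.12%, 6.3% and 13%. For the cAMP response element the Zfp promoters and those of tested genes thus held nearly the same share.

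After LPS, 2 Zfp genes rose and 25 fell against NC, among them 1 DEG up and 7 down. Of all tested genes, 9.84% rose and 19.8% fell (5.55% and 6.68% as DEGs), so 0.769% and 9.62% of the Zfp genes are shares below the background in either direction. The median log2 change of the 260 was -0.23, beside -0.17 for all tested genes, and 182 of 260 lay below 0. Centring each sample on its median gene took the median of all genes to -0.0005 and that of the Zfp genes to -0.06, and 15 then rose and 9 fell, beside 14.6% and 12.0% of all genes. Centring shifts all genes of a sample alike, so the counts move with it, and the median of the Zfp genes stayed below 0 then. With quantile normalization the Zfp median was -0.02, beside -0.0495 for all tested genes. The Zfp genes then lay above all tested genes, and not below them. Of the 25 that fell, 9 were still called after centring (Zfp202, Zfp219, Zfp362, Zfp395, Zfp579, Zfp580, Zfp688, Zfp692 and Zfp931) and both that rose were. The KRAB class had 1 that rose and 11 that fell of 150 (median -0.27), and the other class 1 and 14 of 102 (median -0.20). The difference between the classes was not tested. Among Zfp genes of at least 5 TPM, tested within genes of that level, 2 rose and 14 fell of 107, beside 12.1% and 23.0% of 8979.

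**Figure D2:**
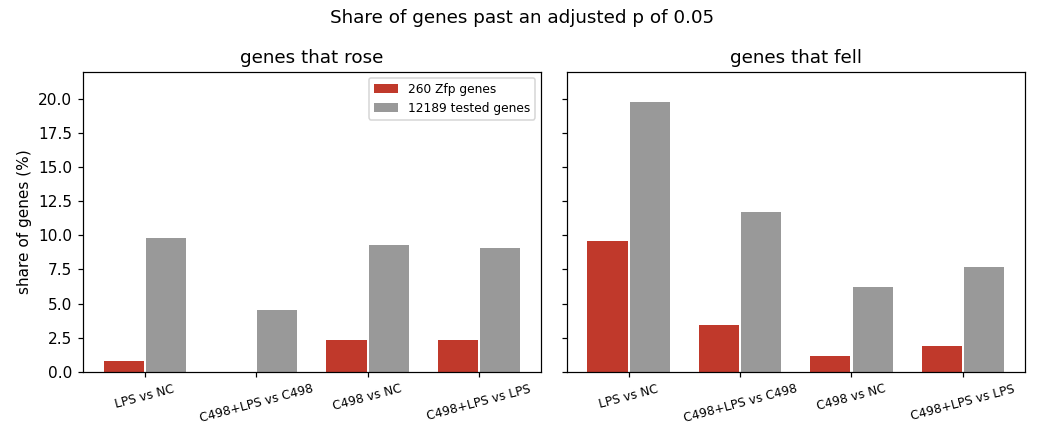
Share of genes in percent (vertical axis, from 0) that rose (left) or fell (right) at an adjusted p of at most 0.05 in each comparison, for the 260 Zfp genes and for the 12189 tested genes. In each of the 8 pairs the Zfp bar is the lower; after LPS 9.62% of Zfp genes fell beside 19.8% of all.

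Zfp800, a C2H2 factor known from pancreas development, was the Zfp gene raised most by LPS. Its level was 8.43 and 4.96 TPM in NC, 29.62 and 25.65 in LPS, 10.30 and 7.92 in C498, and 16.15 and 13.15 in C498+LPS. Both LPS samples stood above all other samples, and the change against NC was 1.93 on the log2 scale (SE 0.248, adjusted p = 0.00167). Zfp800 overlaps the tested gene 6530409C15Rik, and whether reads were assigned by strand is not given in the sources used here. The other Zfp gene that rose was Zfp658, a KRAB gene, with 3.20 and 2.64 TPM in NC and 6.15 and 4.98 in LPS. Its change was 0.74 (SE 0.204, adjusted p = 0.0317), and neither of its LPS samples overlapped NC, which was a condition for naming it.

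Among the Zfp genes that passed the test, Zfp395 had the largest fall after LPS. It is a factor that regulates hypoxia and interferon genes. It went from 4.18 and 2.66 TPM in NC to 0.25 and 0.79 in LPS, and from 3.42 and 3.41 in C498 to 0.95 and 0.97 in C498+LPS. All 4 samples with LPS lay below all 4 without it. The change was -1.54 against NC (SE 0.279, adjusted p = 0.00661) and -1.17 in C498+LPS against C498 (SE 0.279, adjusted p = 0.0317). RefSeq gave no promoter window for Zfp395. The KRAB gene Zfp58 had a change of -1.59 that did not pass (adjusted p = 0.0713).

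The next largest falls after LPS among the genes that passed were those of Zfp579, Zfp362, Zfp932, Zfp692 and Zfp580. Zfp579 was at 10.11 and 7.20 TPM in NC and 2.27 and 2.49 in LPS (-1.50, adjusted p = 0.0065). Zfp362 was at 6.53 and 5.63 TPM in NC and 1.52 and 2.10 in LPS (-1.34, adjusted p = 0.0144). For both, the LPS samples were far below NC and did not overlap it. Zfp932, a KRAB gene that shares 45.2% of its 50-base words with other genes, was at 10.24 and 10.79 TPM in NC and 5.07 and 3.36 in LPS (-1.16, adjusted p = 0.0317). Zfp692 was at 6.88 and 6.51 TPM in NC and 2.35 and 2.71 in LPS (-1.13, adjusted p = 0.00654). Zfp580, whose promoter is printed above with that of Zfp692, was at 4.49 and 3.84 TPM in NC and 1.31 and 1.64 in LPS (-1.06, adjusted p = 0.0135). In each of these genes the higher LPS sample was below the lower NC sample, which was a condition for naming them. The same held for 42.2% of all tested genes.

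Zfp688, named here after its values were seen, had the smallest adjusted p of the 25. It is a KRAB gene at 11.92 and 11.38 TPM in NC, 5.28 and 5.51 in LPS, 8.46 and 8.36 in C498 and 7.27 and 6.06 in C498+LPS. Its change after LPS was -0.98 (SE 0.155, adjusted p = 0.00368). The smaller falls included Zfp746, the KRAB protein PARIS that represses Ppargc1a, at 12.51 and 12.43 TPM in NC and 8.59 and 8.54 in LPS (-0.49, adjusted p = 0.0499). Zfp592, a part of the Z3 chromatin complex, was at 14.39 and 14.33 TPM in NC and 10.55 and 10.15 in LPS (-0.44, adjusted p = 0.0439). Both lie close to the threshold.

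The LPS result rests on few samples. Without NC replicate 1, 8 Zfp genes rose and 15 fell, and without NC replicate 2, 1 rose and 42 fell. Of the 25 falls, 11 were kept without NC replicate 1 and 17 without NC replicate 2. Zfp746, Zfp592 and Zfp932 lost their calls without either NC sample (adjusted p from 0.0648 to 0.0964), Zfp768 too (0.0658 and 0.0927), Zfp362 (0.0534), Zfp637 (0.0694) and Zfp956 (0.0852) without NC replicate 1, and Zfp658 (0.0724) and Zfp524 (0.0885) without NC replicate 2. Without LPS replicate 1, 3 rose and 2 fell, and Zfp800, Zfp395 and Zfp688 were the calls kept. Without LPS replicate 2, 1 rose and 6 fell, with Zfp800, Zfp219, Zfp395, Zfp579, Zfp580, Zfp688 and Zfp692 kept. Leaving out a C498 sample left 14 that fell and leaving out a C498+LPS sample 17 or 19. The calls of Zfp800, Zfp395 and Zfp688 against NC held in every alternative in which they were tested (Zfp395 is below the limit of 5 TPM and was not tested there), and they were the only ones among the 56 calls of Zfp genes in the 4 comparisons of 2 groups.

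Zfp genes lie in clusters, and neighbours did not always move together. With gaps of at most 250 kb, 19 groups of 3 or more neighbours held 117 of the 260, with 90 of the 150 KRAB genes and 26 of the 102 without a KRAB box. On GRCm38, chr7:4915217-5053723 holds Zfp628, Zfp579, Zfp524, Zfp865, Zfp784 and Zfp580, none with a KRAB box. Zfp579, Zfp524 and Zfp580 fell after LPS, by -1.50, -0.67 and -1.06, while Zfp628, between 2.70 and 3.33 TPM in the NC and LPS samples, had a change of -0.07 (adjusted p = 0.834). Zfp865 and Zfp784, which overlap each other, had changes of -0.19 and -0.08 that did not pass. At chr6:47835661-48086593, Zfp956 and Zfp746 fell among 6 neighbours, and at chr7:127233061-127885996, Zfp688 and Zfp768 fell among 10. The largest cluster, chr17:21383748-22456689, holds 17 KRAB genes, of which none rose or fell after LPS with limma and 2 had an unadjusted p under 0.05, beside 41.2% of all tested genes. Their changes ran from -1.09 to 1.24. Of the 117 clustered genes, 1 rose and 10 fell (0.855% and 8.55%), and of the 143 others, 1 rose and 15 fell (0.699% and 10.5%), beside 9.84% and 19.8% of all tested genes.

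**Figure D3:**
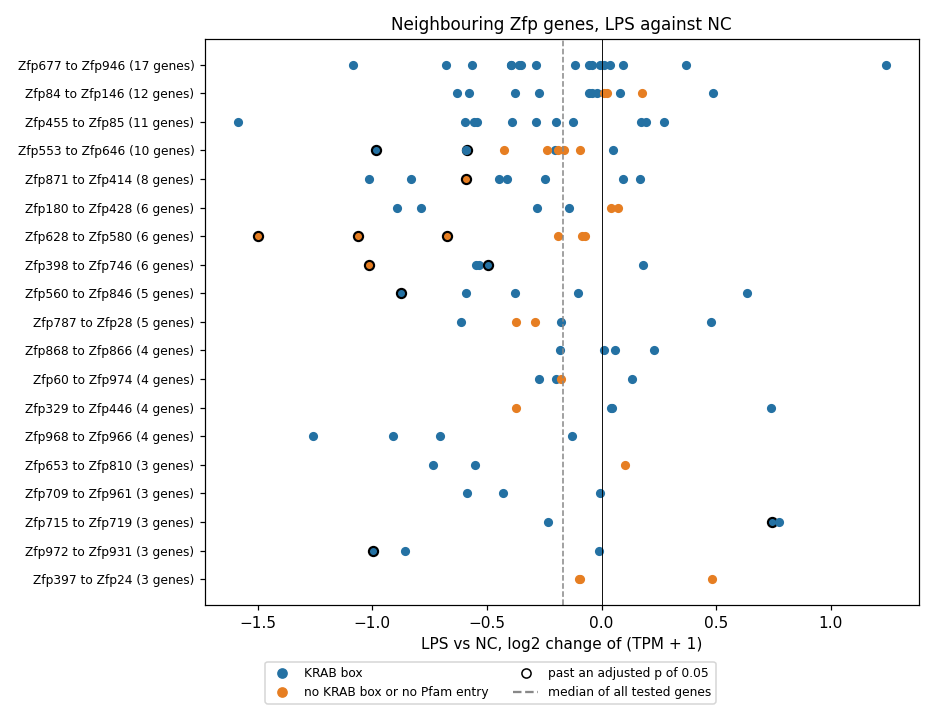
Change after LPS against NC, as log2 of (TPM + 1) on the horizontal axis, for each Zfp gene of the 19 groups of neighbours, named by their first and last gene; blue points have a KRAB box, orange points have none or no Pfam entry, black rings mark an adjusted p of at most 0.05 and the dashed line is the median of all tested genes at -0.17. The Zfp628 to Zfp580 row holds 3 ringed points of 6, and the row of 17 genes holds none.

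With C498 present, LPS lowered 9 Zfp genes and raised none by limma (C498+LPS against C498), among them 4 DEGs, and at an unadjusted p under 0.05 3 were higher and 34 lower. Of all tested genes, 4.51% rose and 11.7% fell (3.13% as DEGs), and 31.9% had an unadjusted p under 0.05. The median change was -0.22 for the Zfp genes and -0.18 for all tested genes, and 207 of 260 lay below 0. After centring the medians were -0.01 and 0.04, with 3 that rose and 2 that fell (Zfp503 and Zfp968) beside 7.94% and 5.32% of all genes. After quantile normalization the Zfp median was -0.04. The 9 were Zfp968, Zfp395, Zfp467, Zfp266, Zfp503, Zfp637, Zfp414, Zfp524 and Zfp358. Without C498 replicate 2 or without C498+LPS replicate 2, none of the 260 fell, without C498 replicate 1, 1 fell that was not among the 9, and without C498+LPS replicate 1, Zfp414 and Zfp637 fell. Without either NC sample 19 fell, the 9 among them, and without either LPS sample Zfp395, Zfp503, Zfp637 and Zfp968.

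Zfp968 was listed at 0 in both C498+LPS samples and at 3.14 and 2.87 TPM in C498 (adjusted p = 0.0185). It was at 4.12 and 1.37 TPM in NC and 1.68 and 0.70 in LPS. All of its 50-base words (100%) occur in other genes too, so its value depends on how reads were shared out and is uncertain. Zfp467, which favours adipocyte over osteoblast fate, was at 3.35 and 5.21 TPM in C498 and 1.46 and 1.61 in C498+LPS, a change of -1.04 (SE 0.263, adjusted p = 0.0387). Zfp266, a KRAB gene, went from 6.91 and 4.65 TPM to 1.84 and 2.87, a change of -1.01 (adjusted p = 0.0375). Neither gene overlapped between the 2 groups, which was a condition for naming them. Zfp503, a corepressor of the NET family, was at 13.03 and 13.52 TPM in C498 and 7.50 and 7.61 in C498+LPS (-0.74, adjusted p = 0.021). It was at 8.98 and 7.84 TPM in NC and 6.66 and 5.64 in LPS, where its change of -0.40 did not pass (adjusted p = 0.096).

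Both LPS comparisons can be set side by side, since they share no sample. The spread of each gene was estimated from all 8 samples for both, so their calls are not independent. Across the 260 Zfp genes the changes correlated with r = 0.452, beside 0.656 across all 12189 tested genes. These are correlations across genes, which are not independent replicates. Of the 25 Zfp genes that fell without C498, 23 (92.0%, beside 96.2% for all tested genes that fell) were below 0 with C498 and 4 fell (Zfp395, Zfp414, Zfp524 and Zfp637). The 4 are 1.54% of the Zfp genes, and 9.36% of all tested genes fell in both. Both that rose, Zfp800 and Zfp658, lay above 0 with C498, at 0.63 (adjusted p = 0.128) and 0.58 (adjusted p = 0.099).

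**Figure D4:**
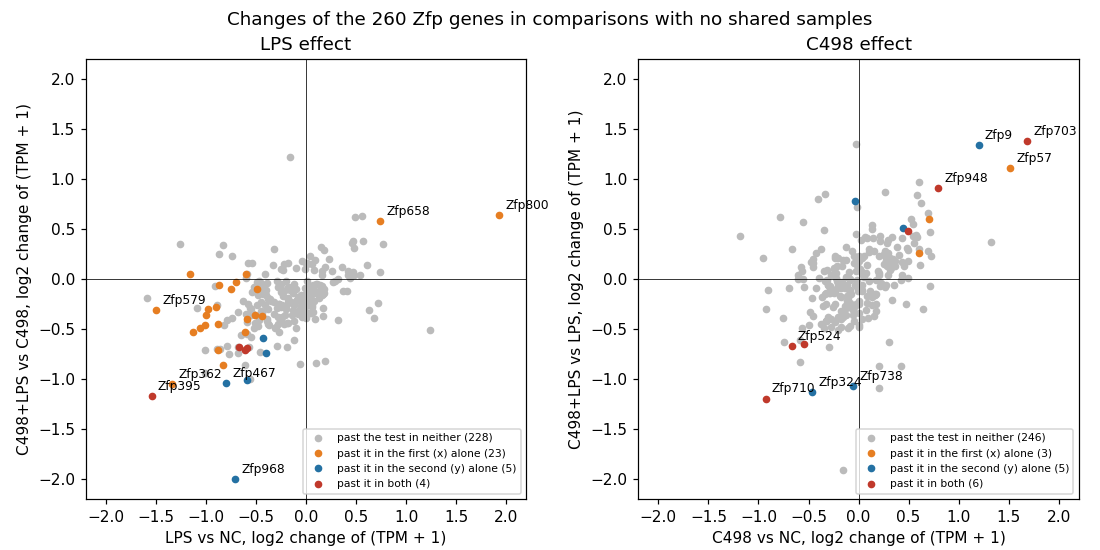
Log2 change of (TPM + 1) of each of the 260 Zfp genes, with the LPS effect (left: LPS against NC on the horizontal axis, C498+LPS against C498 on the vertical axis) and the C498 effect (right: C498 against NC and C498+LPS against LPS). Colours give the comparisons in which a gene passed an adjusted p of 0.05; 4 genes passed in both LPS comparisons and 6 in both C498 comparisons.

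C498 alone raised 6 Zfp genes and lowered 3, with 2 DEGs, both up. Of all tested genes, 9.29% rose (5.64% as DEGs) and 6.19% fell. The median change of the 260 was -0.03, beside 0.01 for all. These medians were -0.15 and -0.11 with centring, and -0.20 and -0.06 with quantile normalization. Zfp703, Zfp57, Zfp948, Zfp131, Zfp503 and Zfp622 rose, and Zfp710, Zfp524 and Zfp414 fell. After centring 6 rose and 7 fell, beside 9.29% and 9.94% of all genes, and after quantile normalization 7 rose and 8 fell, beside 10.6% and 10.1%. The count is sensitive to the NC samples. Without NC replicate 1, 26 rose, the 6 among them, and 3 fell, of which Zfp524 alone was among the first 3. Without NC replicate 2, 2 rose (Zfp703 and Zfp622), and the 2 that fell were other genes. The adjusted p was then 0.135 for Zfp57, 0.146 for Zfp131, 0.0952 for Zfp503, 0.111 for Zfp948, 0.143 for Zfp524, 0.097 for Zfp414 and 0.0518 for Zfp710. Without either LPS sample or either C498 sample 1 or 2 rose and none fell, and without either C498+LPS sample Zfp703 and Zfp622 rose and the 3 falls were kept. The call of Zfp703 held without each of the 8 samples. With NC and C498 alone in the fit, none of the 9 calls was kept (adjusted p = 0.0543 for Zfp703), and the 1 Zfp gene that then rose was another.

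With LPS present, C498 raised 6 Zfp genes and lowered 5 (C498+LPS against LPS), with 2 DEGs up and 3 down. Of all tested genes, 9.08% rose and 7.7% fell (5.39% and 2.18% as DEGs), and the median change of the 260 was -0.01 beside 0.01 for all. Zfp703, Zfp9, Zfp948, Zfp958, Zfp592 and Zfp622 rose, and Zfp710, Zfp324, Zfp738, Zfp524 and Zfp414 fell. After quantile normalization 3 rose and 15 fell, beside 9.7% and 10.2% of all genes. The medians were then -0.18 for the Zfp genes and -0.04 for all tested genes. Without LPS replicate 1, 0 rose and 1 fell, and none of the 11 calls was kept, and without LPS replicate 2, Zfp703 alone was called. Without either C498 sample Zfp703, Zfp9 and Zfp710 were called. Without C498+LPS replicate 1, Zfp9 rose and Zfp324, Zfp414, Zfp524 and Zfp710 fell, and without C498+LPS replicate 2, Zfp710 was the call kept. Without either NC sample 9 rose and 9 fell, the 11 among them.

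The C498 comparisons share no sample either, and 6 Zfp genes passed in both. Here too the spread of a gene was estimated from all 8 samples, so passing in both is not 2 independent results. Zfp703, Zfp948 and Zfp622 rose in both, and Zfp710, Zfp524 and Zfp414 fell in both. These 6 are 2.31% of the Zfp genes, and 9.05% of all tested genes passed in the same direction in both. All 6 that rose in C498 against NC lay above 0 in C498+LPS against LPS, as did 93.6% of all tested genes that rose. Across the 260 genes r was 0.443, and across all tested genes 0.576.

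Zfp703, a corepressor of the NET family, had the largest rise of any Zfp gene in both C498 comparisons. It was at 24.21 and 17.88 TPM in NC, 22.20 and 29.58 in LPS, 84.37 and 56.62 in C498, and 70.93 and 65.53 in C498+LPS. All 4 samples with C498 stood above all 4 without it. The change was 1.68 against NC (SE 0.234, adjusted p = 0.00519) and 1.38 against LPS (SE 0.234, adjusted p = 0.00907). RefSeq gave no promoter window for Zfp703. Markers of other cells moved with C498 too. Of 7 tested fibroblast markers, 5 rose in C498 against NC, and in C498+LPS against LPS 4 rose and 1 (Pdgfrb) fell. The 8 fibroblast markers summed to 154 to 195 TPM in NC, 187 to 213 in LPS, 638 to 754 in C498 and 625 to 919 in C498+LPS, and Lum was the marker listed at 0 in at least 1 sample. Of 4 tested mesothelial markers, Wt1 and Krt19 rose in both comparisons, and the 6 markers summed to 5.37 to 5.9, 5.4 to 5.54, 16.2 to 22 and 16.5 to 25.9 TPM in the same order, with none at 0. The macrophage sum was 20280 to 20861, 18203 to 18723, 16116 to 16244 and 12560 to 14378 TPM. Of the 10 macrophage markers, 1 (Cd14) rose in both comparisons, 2 fell in C498 against NC and 5 in C498+LPS against LPS. Of 7 neutrophil markers 2 were tested. Retnlg fell in both comparisons (-1.64 and -1.78), and S100a8 fell in C498 against NC (-0.94) and not in C498+LPS against LPS (-0.44, adjusted p = 0.269), while Elane was listed at 0 in every sample. The neutrophil sum was 82 to 132, 94.3 to 120, 52.2 to 55.2 and 72 to 80.8 TPM. The 6 B cell markers summed to 18 to 25, 24.7 to 25.1, 42.5 to 54.7 and 41.7 to 120 TPM, and Ighm rose in C498+LPS against LPS (adjusted p = 0.0484). The part of these cells in the Zfp genes raised with C498, Zfp703 among them, or lowered with it (Zfp710, Zfp524 and Zfp414) was not tested.

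Zfp622 was at 21.66 and 23.04 TPM in NC, 20.19 and 20.59 in LPS, 30.89 and 32.72 in C498, and 29.96 and 27.76 in C498+LPS. All samples with C498 were above all without it, and the changes were 0.49 (SE 0.111, adjusted p = 0.0277) and 0.48 (SE 0.111, adjusted p = 0.0268). After centring, Zfp622 passed in neither comparison (adjusted p = 0.124 and 0.106), and after quantile normalization it did not pass in C498+LPS against LPS (0.056). The KRAB gene Zfp948 was at 2.54 and 1.73 TPM in NC, 2.23 and 1.97 in LPS, 4.85 and 3.99 in C498, and 4.96 and 4.65 in C498+LPS. It too had no overlap between the samples with and without C498, with changes of 0.80 (adjusted p = 0.0482) and 0.91 (adjusted p = 0.0297).

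Zfp57, the KRAB protein that keeps DNA methylation at imprinted regions, was near the bottom of the range without C498. It was at 0.91 and 0.22 TPM in NC, 1.13 and 1.11 in LPS, 5.16 and 2.08 in C498, and 3.18 and 4.00 in C498+LPS. The samples with C498 were higher in both settings, and the change passed against NC (1.51, SE 0.379, adjusted p = 0.0384) and not against LPS (1.11, adjusted p = 0.093). After quantile normalization it did not pass against NC (adjusted p = 0.0516). Zfp131, a BTB-type factor, was at 13.11 and 10.19 TPM in NC and 20.78 and 18.10 in C498 (0.70, adjusted p = 0.0458), and at 19.09 and 14.11 in LPS and 25.65 and 25.20 in C498+LPS (0.60, adjusted p = 0.07). Zfp503, described above, was 0.60 higher in C498 than in NC (adjusted p = 0.0415). Whether these effects differ between the settings is given by the interaction below.

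The KRAB genes Zfp9, Zfp324 and Zfp738 moved in C498+LPS against LPS at low levels. Zfp9 was at 0.46 and 0.20 TPM in LPS and 1.63 and 3.27 in C498+LPS (1.34, adjusted p = 0.0414). Zfp324 was at 4.93 and 4.81 TPM in LPS and 2.33 and 1.16 in C498+LPS (-1.13, adjusted p = 0.034). Zfp738 was at 3.52 and 5.28 TPM in LPS and 1.90 and 1.23 in C498+LPS (-1.07, adjusted p = 0.0417). In each the groups did not overlap, which was a condition for naming them. Zfp958, a further KRAB gene, was at 3.60 and 4.49 TPM in NC, 1.68 and 1.81 in LPS and 3.98 and 3.43 in C498+LPS, so that it fell after LPS (-0.87, adjusted p = 0.0151) and was higher again with C498 (0.78, adjusted p = 0.0359). Zfp592, which fell after LPS, was at 15.80 and 14.57 TPM in C498+LPS, 0.51 above LPS (adjusted p = 0.0388). After centring, Zfp9, Zfp958 and Zfp592 did not pass in this comparison (adjusted p = 0.0549, 0.0706 and 0.0729).

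Among the Zfp genes that passed the test, Zfp710 was lowered most in both C498 comparisons. It was at 26.35 and 22.14 TPM in NC, 24.29 and 21.30 in LPS, 12.66 and 11.83 in C498, and 11.45 and 7.64 in C498+LPS. All 4 samples with C498 lay below all 4 without it. The change was -0.93 against NC (SE 0.199, adjusted p = 0.0235) and -1.20 against LPS (SE 0.199, adjusted p = 0.00842), and LPS alone moved it by -0.08 (adjusted p = 0.794). The call against NC was lost without NC replicate 1 (adjusted p = 0.057) and without NC replicate 2 (0.0518). Larger changes that did not pass were those of Zfp969 (-1.18) and Zfp799 (-0.96) in C498 against NC, and of Zfp229 in C498+LPS against LPS (-1.91, adjusted p = 0.164). The printed promoter of Zfp710 holds the NFκB match named above.

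Zfp524 and Zfp414 fell in all 4 comparisons of 2 groups. Zfp524 was at 19.10 and 23.61 TPM in NC, 12.59 and 13.32 in LPS, 13.14 and 12.87 in C498, and 9.03 and 6.64 in C498+LPS. Zfp414 was at 21.44 and 21.46 TPM in NC, 13.79 and 14.02 in LPS, 14.68 and 14.01 in C498, and 9.56 and 7.51 in C498+LPS. For both genes NC was highest, LPS and C498 lay close together, and C498+LPS was lowest without overlap. The changes of Zfp524 ran from -0.68 to -0.67, with adjusted p from 0.0279 to 0.0466, and those of Zfp414 from -0.69 to -0.55, with adjusted p from 0.0212 to 0.0458. Zfp524 overlaps Fiz1 and shares 47.9% of its 50-base words with other genes, and Zfp414 overlaps Gm20507 and shares 43.9%, so reads of these neighbours may not be told apart. After centring, neither gene passed in LPS against NC (adjusted p = 0.136 for Zfp524 and 0.0872 for Zfp414) or in C498+LPS against C498 (0.218 and 0.0906), and Zfp524 did not pass in C498+LPS against LPS (0.0539).

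**Figure D5:**
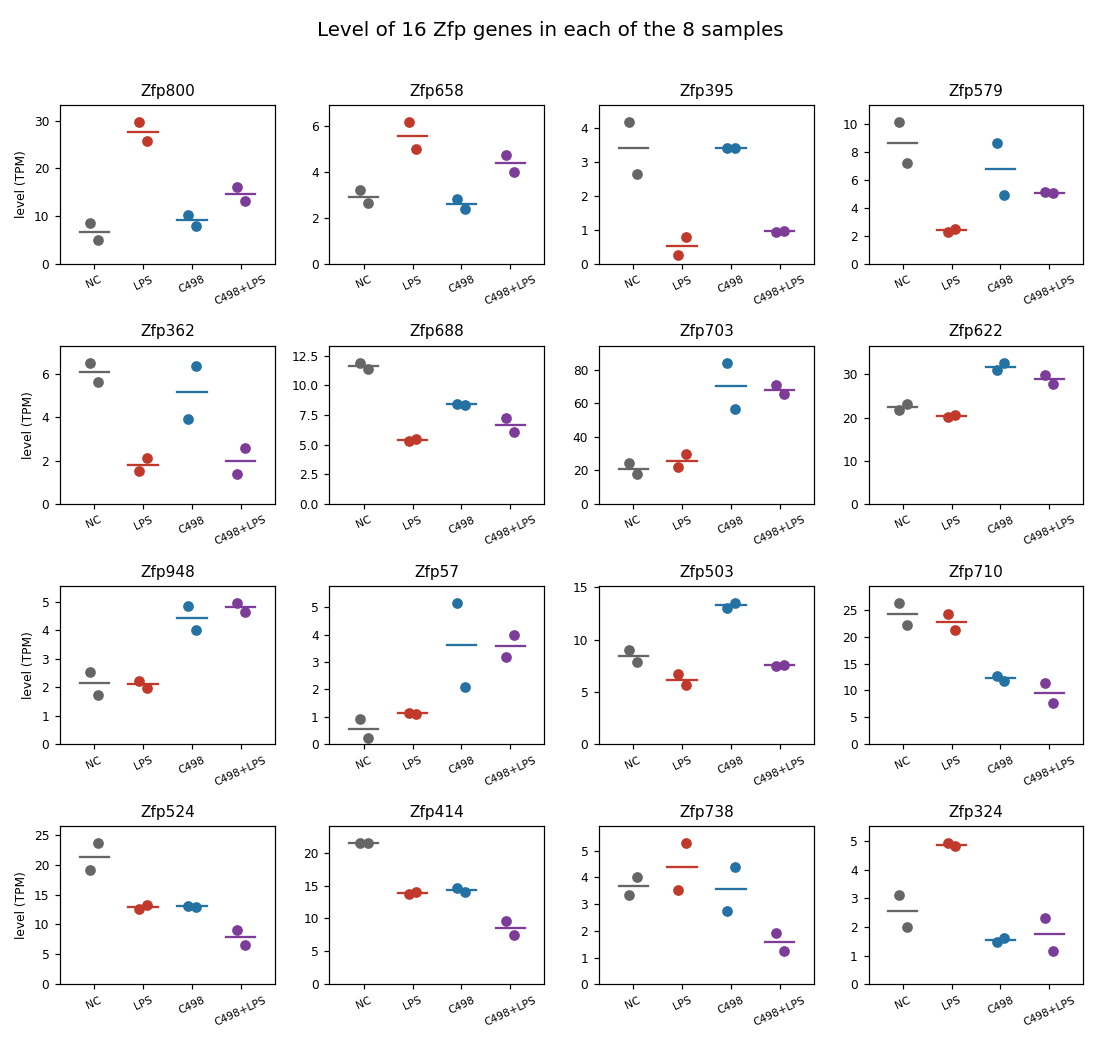
Level in TPM (vertical axes, each from 0) of 16 Zfp genes in the 8 samples; points are samples and the short line is the mean of the 2 samples of a group. Zfp800 and Zfp658 stand highest in LPS, Zfp703, Zfp622 and Zfp948 are higher in both groups with C498, Zfp710 is lower in both, and Zfp524 and Zfp414 step down from NC to C498+LPS.

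The interaction asks whether LPS moved a gene differently with C498 than without it. No Zfp gene passed an adjusted p of 0.05 with limma, beside 0.492% of all tested genes, and 7 of the 260 had an unadjusted p under 0.05, beside 11.1% of all. The lowest adjusted p was that of Zfp800, chosen here after its values were seen, with a difference of -1.30 (adjusted p = 0.238). The LPS effect on Zfp800 was thus 1.93 without C498 and 0.63 with it, and the difference did not pass. Of the 10 LPS response genes 8 had an LPS effect that was smaller with C498 at an adjusted p of at most 0.05. All 10 were already raised in C498 against NC (median 2.12). In C498+LPS against LPS 2 of them rose and 1 fell (median -0.09). Their sum was 20729 to 20882 TPM in LPS and 20199 to 22661 TPM in C498+LPS.

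Over the 4 comparisons of 2 groups, 41 Zfp genes rose or fell in at least 1 and 219 in none. That is 15.8% of the Zfp genes, beside 43.3% of all tested genes. The median SE of a change was 0.255 for the Zfp genes and 0.204 for all tested genes, and the median levels were 3.89 and 13.9 TPM. The part of SE and level in the lower share was not tested. Changes of less than 2-fold were the rule, with 98.1% of the Zfp genes within that range in C498 against NC, 96.5% in C498+LPS against LPS, 94.6% in LPS against NC and 97.7% in C498+LPS against C498, beside 90.0%, 90.1%, 85.6% and 91.9% of all tested genes. At a mean of at least 5 TPM the shares were 98.1%, 98.1%, 96.3% and 100.0% of 107 Zfp genes, beside 92.1%, 92.2%, 86.3% and 92.5% of 8979 genes. Of the 260, 21 share over 50% of their 50-base words with other genes and 31 overlap another tested gene, and their values are uncertain to that extent.

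A list of corepressor and H3K9 silencing genes was measured alongside. It holds Trim28 and Setdb1, through which KRAB proteins act, and other chromatin genes such as Daxx, Setdb2, Dnmt1 and Dnmt3a. The counts are for the whole list. Of 28 tested corepressor and H3K9 silencing genes, 2 rose and 4 fell after LPS (median -0.09), and 2 rose and 4 fell in C498+LPS against C498 (median -0.17). In both this is 7.14% and 14.3%, beside 9.84% and 19.8% of all tested genes after LPS and 4.51% and 11.7% with C498 present. Daxx, a histone H3.3 chaperone, went from a mean of 84.9 to 415 TPM after LPS (2.28), and Setdb2, a methyltransferase induced in virus infection, from 8.91 to 33.2 TPM (1.79). Dnmt1, the maintenance DNA methyltransferase, went from 53.0 to 12.7 TPM (-1.96), Dnmt3a from 77.5 to 29.2 TPM (-1.37), and Cbx3, a heterochromatin protein, from 31.8 to 12.1 TPM (-1.32). All 5 passed in LPS against NC.

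In C498 against NC, Trim28 was the gene of this list that passed. It went from a mean of 101 TPM in NC to 161 TPM in C498 (0.68, adjusted p = 0.016) and from 101 TPM in LPS to 157 TPM in C498+LPS (0.63, adjusted p = 0.018). The median change of the list was 0.23 and 0.20 in these comparisons, and in C498+LPS against LPS 3 rose and 3 fell. These are 10.7% each way, beside 9.08% and 7.7% of all tested genes, and the 1 call in C498 against NC is 3.57%, beside 15.5%. Setdb1, chosen after its values were seen, did not pass in any comparison (adjusted p from 0.072 to 0.704).

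Other zinc finger families were measured for comparison. Of 36 tested Zbtb genes, which pair a BTB domain with zinc fingers, 2 rose and 4 fell after LPS, 2 rose and 2 fell with C498 alone, 3 rose and 2 fell in C498+LPS against LPS, and 2 fell in C498+LPS against C498. That is 16.7%, 11.1%, 13.9% and 5.56% of them called, beside 29.6%, 15.5%, 16.8% and 16.2% of all tested genes. Zbtb7b fell in all 4 comparisons, by -0.43, -0.49, -0.35 and -0.40 for C498 against NC, C498+LPS against LPS, LPS against NC and C498+LPS against C498. Of 14 Zscan and Zkscan genes, which carry a SCAN domain, none passed in any comparison with limma, and 2, 3, 2 and 1 had an unadjusted p under 0.05 in LPS against NC, C498+LPS against C498, C498 against NC and C498+LPS against LPS. The Zc3h genes, whose CCCH fingers bind RNA, had 15 tested entries, with Zc3h11a listed 2 times. Of these entries, 4 rose and 1 fell after LPS, 2 rose in C498 against NC, 1 rose in C498+LPS against LPS and 2 rose in C498+LPS against C498. Their shares called were 33.3%, 13.3%, 6.67% and 13.3%, beside the 29.6%, 15.5%, 16.8% and 16.2% of all tested genes. The Zc3h11a entry at a mean of 18.8 TPM rose after LPS (1.47, adjusted p = 0.0441) and in C498 against NC (2.61, adjusted p = 0.0108). The entry at 38.2 TPM passed in neither (adjusted p = 0.508 and 0.465). Zc3h12a, the RNase regnase-1 that cuts cytokine mRNAs, rose by 2.66 after LPS and by 2.11 in C498+LPS against C498, a change larger than that of any of the 260 Zfp genes in those comparisons.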

How the data were processed

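RNA was sequenced from thioglycollate-elicited peritoneal macrophages in 8 samples (TruSeq RNA libraries, NovaSeq, paired reads of 150 bases). Per the labels and methods, the authors used fastp, HISAT2, StringTie and RSEM, whose versions, genome build and annotation are not given in the sources used here. The deposited table holds TPM (a read share scaled for transcript length and library total) for 55801 genes, and each column sums to 999999 to 1000001, so the depth and counting error per sample are unknown. The authors' gene lengths and Pfam columns were read from the same table. The table's Pfam entries gave the KRAB class, in place of the RefSeq proteins first planned.

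The groups were taken from the labels. Members were the genes named Zfp followed by digits, without Zfp36, at a mean of at least 1 TPM. Members, gene lists, motifs and shown sequences were chosen with earlier results of these data known. Changes were tested with limma 3.58.1 (R 4.3.3) on log2(TPM + 1) over 12189 genes with a mean of at least 1 TPM, fitting all 8 samples with 1 mean per group and a variance trend. Adjusted p is Benjamini-Hochberg over all 12189. A gene rose or fell at an adjusted p of at most 0.05, and was a DEG (differentially expressed gene, the study's threshold) when it also changed by at least 2-fold. A fold on this scale understates the change of low genes. Counts are not used here, so DESeq2, the study's tool, was not run.

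Named genes were, in each comparison, the 6 largest changes in each direction among those past the test with replicates that do not overlap (for the interaction of C498 and LPS, without the condition on overlap), the 10 members with the highest mean level, the members past the test with a known role on a fixed list, the 3 genes on either side of the level limit, and up to 6 genes past the test in each gene list. Others are said to be chosen after their values were seen. In data simulated for the comparison of C498 with NC (12189 genes, 200 of them changed), 80% of 4-fold and 39% of 2-fold changes were called, with 7 unchanged genes. Gene positions came from GENCODE M21 (GRCm38), which held all 260 member identifiers. Shared sequence was the share of a gene's 50-base words found in other genes. Promoters came from RefSeq (GRCm38.p6), matched by symbol for 215 members. The interferon-stimulated response element and the NRF1 motif were also searched. Both were left out after their matches were seen, and their shares are not reported here. The alternatives were another pseudocount (0.1), no limit on the level, a limit of 5 TPM, quantile normalization, a shift of each sample to a common median, the compared groups alone, no variance trend, the replicate number as a block, and each sample left out in turn.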

Additional observations from a re-analysis of the deposited data

How the results depend on the processing

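With a pseudocount of 0.1, DEGs among the Zfp genes numbered 4 in C498 against NC, 8 in C498+LPS against LPS and 14 in LPS against NC. With no limit on the level they were 1, 2 and 5, and 0 in C498+LPS against C498, and the genes that rose and fell were 2 and 0 in C498 against NC, 2 and 2 in C498+LPS against LPS and 1 and 10 in LPS against NC, with 4 that fell in C498+LPS against C498. With a limit of 5 TPM (107 Zfp genes), DEGs were 1, 2, 3 and 0 in the same order, 3 rose in C498+LPS against LPS, 14 fell in LPS against NC and 5 fell in C498+LPS against C498. After centring, 7 fell in C498 against NC, 8 fell in C498+LPS against LPS, 15 rose and 9 fell in LPS against NC (4 DEGs, median -0.0615) and 3 rose and 2 fell in C498+LPS against C498 (1 DEG, median -0.0066). After quantile normalization, 8 fell in C498 against NC (median -0.20), 3 rose and 15 fell in C498+LPS against LPS (median -0.18), 15 rose and 9 fell in LPS against NC (4 DEGs, median -0.02) and 3 rose and 4 fell in C498+LPS against C498 (2 DEGs, median -0.0401). With only the groups compared, which have fewer samples, 1 rose and 0 fell in C498 against NC (1 DEG, not Zfp703), 2 fell in C498+LPS against LPS (3 DEGs), 1 rose and 7 fell in LPS against NC, and C498+LPS against C498 had 2 DEGs. Without the variance trend 4 rose in LPS against NC and 1 in C498+LPS against C498. The cause of these shifts was not tested.

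Leaving out each sample in turn gave 1 to 12 DEGs, 1 to 26 that rose and 0 to 3 that fell in C498 against NC (median -0.20 to 0.15), 1 to 6 DEGs, 0 to 9 that rose and 0 to 9 that fell in C498+LPS against LPS (median -0.06 to 0.07), 4 to 22 DEGs, 1 to 8 that rose and 2 to 42 that fell in LPS against NC (median -0.41 to -0.074), and 0 to 4 DEGs, 0 to 1 that rose and 0 to 19 that fell in C498+LPS against C498 (median -0.27 to -0.15). In the interaction it gave 0 DEGs and no calls, with a median of -0.18 to 0.17. A group left with 1 sample takes its spread from the others. Over the 56 single calls no alternative reversed a sign. The threshold was kept 286 times and lost 139 times under other settings, and kept 196 times and lost 252 times with a sample left out.

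Samples with the same replicate number deviated together with r = 0.168, 0.135, 0.102, 0.0397, 0.0412 and 0.0417 over the 6 pairs of groups. All 6 are above 0 and 3 are over 0.1, and since 3 are not and the labels name no shared source, the numbers were not taken as pairs. With the replicate block, 6 rose and 37 fell in LPS against NC, 9 and 3 in C498 against NC, 8 and 7 in C498+LPS against LPS and 1 and 11 in C498+LPS against C498. The calls lost were Zfp9 in C498+LPS against LPS (adjusted p = 0.0515) and Zfp873 in LPS against NC (0.0529), and the other 54 were kept. The depth is unknown, and with 2 samples against 2 an exact test of a single gene cannot go below p = 0.333.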

Other observations

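Zfp975 was kept by the level limit through a single sample, chosen here after its values were seen. It was at 9.22 TPM in C498+LPS replicate 1 and between 0.55 and 0.91 TPM in the other samples. Zfp583 was at 3.12 TPM in LPS replicate 2 and between 0.55 and 0.93 TPM elsewhere. Zfp706, the third highest Zfp gene by mean level, was at 33.56 and 68.59 TPM in NC, 20.45 and 32.36 in LPS, 43.07 and 24.26 in C498, and 35.11 and 42.51 in C498+LPS, so that its samples of 1 group differed by as much as its groups, and no change of it passed.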
